A study of Mus musculus with 6 samples.

Results

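Glycolysis splits glucose into pyruvate in the cytosol and yields ATP and NADH without oxygen. Glucose enters through facilitative transporters, is trapped by phosphorylation, cleaved to triose phosphates and oxidised to pyruvate, and lactate dehydrogenase can reduce that pyruvate to lactate, which restores NAD+. In mouse and human cells many of these genes are known targets of the transcription factors HIF-1 and Myc, and pluripotent stem cells are known for high glycolytic flux, so the pathway is often followed during reprogramming. Described here are 10 genes of this route, the glucose transporter Slc2a1 and the enzyme genes Hk2, Gpi1, Pfkl, Pfkp, Aldoa, Tpi1, Pgk1, Eno1 and Ldha, out of 20325 genes listed in each file. All 10 were among the 13460 genes with enough counts to be tested. They were selected on their role in glycolysis and on earlier fitted values of these same libraries, in which Eno1 stood out, so their differences between the sorted populations are given as description. Where counts of calls are given for that contrast, they stand beside the share over all tested genes, and nothing is read from them.

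The RNA came from neural stem cells of the mouse, which divide to give neurons and glia, taken at postnatal day 4 from mice of mixed 129/Black 6 strain. The mice had 2 copies of an inducible Stemcca allele (Oct4, Sox2, c-Myc and Klf4) at ColA1 and 1 copy of the reverse tetracycline transactivator at Rosa26, and doxycycline was given until day 7. Cells were fixed, permeabilised and sorted by antibody staining. Nanog+E-cadherin+ cells (n = 3) stained for the pluripotency factor Nanog and the epithelial adhesion protein E-cadherin, and Nanog+E-cadherin- cells (n = 3) stained for Nanog alone. Both populations carried the cassette and the drug, and no uninduced or unsorted cells were compared here. The labels number the libraries 1 to 3 in each population but do not say whether they came from separate animals or cultures, so a p-value here speaks only for the spread among these 6 samples. In sorted bulk RNA, fewer cells expressing a gene and less of its RNA per cell cannot be told apart.

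Total expected counts ran from 8851110 to 39630916 per library. Cdh1, which encodes E-cadherin, followed the sort, with 104, 143 and 139 CPM (counts scaled to library size with TMM factors between libraries) in Nanog+E-cadherin+ replicates 1 to 3, against 16.5, 20.3 and 15.4 CPM in Nanog+E-cadherin- replicates 1 to 3. Nanog overlapped between the populations, at 118, 131 and 101 CPM in Nanog+E-cadherin+ libraries, against 135, 107 and 78.6 CPM in Nanog+E-cadherin- libraries. Neural stem cell markers were present throughout. As CPM of library totals, the scale of all marker sums, 6 of them summed to 1528, 3145 and 4654 CPM in Nanog+E-cadherin+ replicates 1 to 3. In Nanog+E-cadherin- replicates 1 to 3 they summed to 1829, 3708 and 4463 CPM, so the sum was lowest in both replicate 1 libraries. The sum rests mainly on Vim, at 1192 to 3364 CPM with TMM scaling. Sox2, which the cassette also encodes, had 379 to 574 CPM on that scale, so it does not mark neural stem cells alone here. Markers of microglia and blood summed to at most 9.36 CPM in any library, with the haemoglobin gene Hbb-b1 at 0 in all 6. Same-numbered libraries of the 2 populations deviated together across all genes, so values are also given within pairs of equal replicate number, and fits with the replicate number as a block are given beside fits with the population as the only term.

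Promoter sequences of 4 of the genes are shown first, as examples of windows with and without the letters ACGTG, a form of the motif that HIF-1 is known to bind. Other forms of that motif were not searched, so a window without ACGTG can still hold one. The windows are RefSeq's, from 250 bases before to 50 bases after a transcription start on GRCm38.p6, written 5′ to 3′ on the strand of the gene. Capitals mark matches to ACGTG on either strand. The longer CACGTG, known as an E-box bound by Myc, contains ACGTG on both strands.
Slc2a1 (GRCm38.p6, chr4:119108495-119108794, + strand): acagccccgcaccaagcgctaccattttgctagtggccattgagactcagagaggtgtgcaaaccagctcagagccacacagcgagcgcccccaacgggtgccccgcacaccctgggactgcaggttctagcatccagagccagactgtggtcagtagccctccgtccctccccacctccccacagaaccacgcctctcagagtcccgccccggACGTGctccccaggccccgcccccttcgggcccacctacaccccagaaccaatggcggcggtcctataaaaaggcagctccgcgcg
Pgk1 (GRCm38.p6, chrX:106186850-106187149, + strand): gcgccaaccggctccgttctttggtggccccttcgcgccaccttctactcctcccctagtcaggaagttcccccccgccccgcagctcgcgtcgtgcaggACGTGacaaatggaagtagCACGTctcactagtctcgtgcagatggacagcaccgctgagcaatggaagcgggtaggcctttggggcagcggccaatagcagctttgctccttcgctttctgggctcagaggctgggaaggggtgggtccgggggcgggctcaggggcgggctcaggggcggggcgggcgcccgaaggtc
Ldha (GRCm38.p6, chr7:46845554-46845853, + strand): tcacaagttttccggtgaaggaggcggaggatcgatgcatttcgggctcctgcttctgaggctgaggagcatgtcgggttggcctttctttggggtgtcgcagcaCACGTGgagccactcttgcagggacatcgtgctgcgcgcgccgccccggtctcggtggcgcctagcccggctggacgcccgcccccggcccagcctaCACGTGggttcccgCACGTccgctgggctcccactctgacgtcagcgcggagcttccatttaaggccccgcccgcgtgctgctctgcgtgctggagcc
Eno1 (GRCm38.p6, chr4:150236974-150237273, + strand): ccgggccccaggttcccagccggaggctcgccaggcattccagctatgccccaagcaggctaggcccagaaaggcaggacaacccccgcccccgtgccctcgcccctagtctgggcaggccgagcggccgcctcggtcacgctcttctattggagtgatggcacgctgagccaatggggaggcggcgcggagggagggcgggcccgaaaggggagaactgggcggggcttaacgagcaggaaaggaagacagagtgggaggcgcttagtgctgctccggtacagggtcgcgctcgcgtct
Of the 10 genes, all of which had at least 1 such window, 5 held ACGTG in a window, namely Slc2a1, Hk2, Pgk1, Ldha and Aldoa. Over all mouse genes with a window the share was 21.8%, and over single windows it was 19.6%. Ldha had 5 matches in the window shown, counting both strands, and 0 in its other window, and it was the 1 gene of the 10 with CACGTG, which 8.09% of all genes with a window held. Aldoa held ACGTG in 2 of its 3 windows and Eno1 in 0 of its 3. The letters were also not found in the windows of Gpi1, Pfkl, Pfkp and Tpi1. A match is a description of these windows and not a binding site, and genes with and without it are found on both sides of the expression pattern described next.

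**Figure D1:**
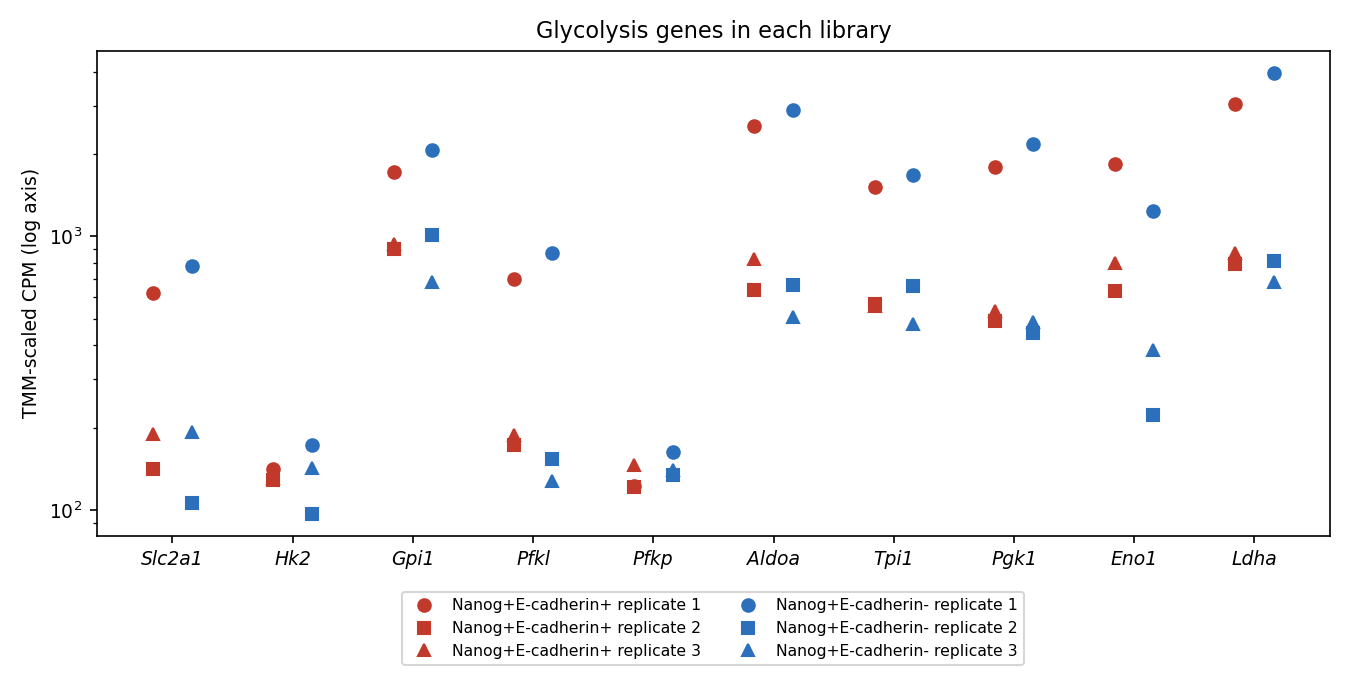
TMM-scaled CPM on a log axis for the 10 glycolysis genes in each library, with Nanog+E-cadherin+ libraries left (red) of Nanog+E-cadherin- libraries (blue) and the symbol giving the replicate number. Both circles of replicate 1 lie above all other symbols for 8 genes, by less for Eno1 and Gpi1 than for Ldha or Pfkl. Hk2 and Pfkp stay within 97.0 to 173 CPM, and red and blue overlap for all 10 genes.

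Uptake and trapping of glucose showed no common difference between the sorted populations. Slc2a1 (GLUT1), the transporter that brings glucose into most cell types, had 623, 141 and 189.9 CPM in Nanog+E-cadherin+ replicates 1 to 3, against 779, 106 and 193 CPM in Nanog+E-cadherin- replicates 1 to 3. Both replicate 1 libraries were high, and the populations overlapped. Its log2 fold change, Nanog+E-cadherin+ over Nanog+E-cadherin-, was -0.18 ± 0.83 (SE) with population alone and 0.02 ± 0.16 (SE) with the replicate block. Hk2, the regulated hexokinase isozyme that phosphorylates glucose, had 141, 128 and 131 CPM in Nanog+E-cadherin+ replicates 1 to 3, against 173, 97.0 and 143 CPM in Nanog+E-cadherin- replicates 1 to 3. Unlike Slc2a1, it had no library far from the rest. Its population means were 133 ± 6.99 CPM in Nanog+E-cadherin+ cells and 138 ± 38.5 CPM in Nanog+E-cadherin- cells (SD, n = 3 each).

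The hexose phosphate steps behaved differently between isozymes. Gpi1, which turns glucose 6-phosphate into fructose 6-phosphate, had 1721, 904 and 936 CPM in Nanog+E-cadherin+ replicates 1 to 3, against 2066, 1013 and 681 CPM in Nanog+E-cadherin- replicates 1 to 3. Pfkl, the liver-type subunit of phosphofructokinase, the committing step of glycolysis, had 700.3, 173 and 188 CPM in Nanog+E-cadherin+ cells, against 869.7, 154 and 128 CPM in Nanog+E-cadherin- cells. Both genes were highest in the replicate 1 libraries and overlapped between the populations. Pfkp, the platelet-type subunit of the same enzyme, had 123, 121 and 146 CPM in Nanog+E-cadherin+ replicates 1 to 3, against 162, 135 and 139.6 CPM in Nanog+E-cadherin- replicates 1 to 3, a nearly flat profile. With the replicate block the log2 fold changes were 0.01 ± 0.16 for Gpi1, 0.14 ± 0.18 for Pfkl and -0.17 ± 0.15 for Pfkp (SE).

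The triose steps followed the libraries' number rather than the sort. Aldoa, the aldolase that cleaves fructose 1,6-bisphosphate, had 2544, 639 and 825 CPM in Nanog+E-cadherin+ replicates 1 to 3, against 2896, 665 and 508 CPM in Nanog+E-cadherin- replicates 1 to 3. Tpi1, which interconverts the triose phosphates, had 1520.4, 566 and 556 CPM in Nanog+E-cadherin+ cells, against 1673, 658 and 478 CPM in Nanog+E-cadherin- cells. Pgk1, which makes the first ATP of the pathway's later phase, had 1801, 492 and 534 CPM in Nanog+E-cadherin+ replicates 1 to 3, against 2180.1, 444 and 488 CPM in Nanog+E-cadherin- replicates 1 to 3. In each of these genes both replicate 1 libraries exceeded all 4 other libraries, and within replicate 1 the Nanog+E-cadherin- library was the higher of the pair. The log2 fold changes with the replicate block were 0.15 ± 0.17 for Aldoa, -0.05 ± 0.13 for Tpi1 and 0.00 ± 0.13 for Pgk1 (SE).

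Ldha, the lactate dehydrogenase subunit that favours making lactate, showed the pattern of the triose genes at the end of the route. It had 3056, 792 and 869 CPM in Nanog+E-cadherin+ replicates 1 to 3, against 3967, 813 and 679 CPM in Nanog+E-cadherin- replicates 1 to 3. Its means, 1572 ± 1285 CPM in Nanog+E-cadherin+ cells and 1819.6 ± 1861 CPM in Nanog+E-cadherin- cells (SD, n = 3 each), had standard deviations near or above their own size. With the replicate block its log2 fold change was -0.02 ± 0.15 (SE), against -0.21 ± 0.82 (SE) with population alone.

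Eno1, the enolase that turns 2-phosphoglycerate into phosphoenolpyruvate, was the 1 gene of the 10 that was higher in Nanog+E-cadherin+ cells within every pair. It had 1845, 634 and 798 CPM in Nanog+E-cadherin+ replicates 1 to 3, against 1239, 223 and 384 CPM in Nanog+E-cadherin- replicates 1 to 3. The populations still overlapped, because replicate 1 of Nanog+E-cadherin- exceeded Nanog+E-cadherin+ replicates 2 and 3. Within pairs Eno1 was 1.49-fold, 2.84-fold and 2.08-fold higher in replicates 1, 2 and 3. Its log2 fold change was 0.83 ± 0.69 (SE) with population alone and 1.04 ± 0.18 (SE), or 2.06-fold, with the replicate block. Over all tested genes, 18.9% were likewise higher in Nanog+E-cadherin+ cells in all 3 pairs, and the selection of Eno1 used this contrast, so nothing is read from its place among them. The difference between Eno1 and the other 9 genes was not tested.

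Among the other 9 genes the pairs did not share a direction. In replicate 1 all 9 were lower in Nanog+E-cadherin+ cells, with log2 ratios of -0.40 to -0.14 and a median of -0.29. In replicate 2 the log2 ratios ran from -0.22 to 0.42, with 4 genes higher and 5 lower. In replicate 3 they ran from -0.13 to 0.70, with 7 genes higher and 2 lower. Aldoa had the widest single value, at a log2 ratio of 0.70 in replicate 3, against -0.19 and -0.06 in replicates 1 and 2. Fitted over all libraries, the 9 genes lay between -0.21 and -0.02 with population alone and between -0.17 and 0.15 with the replicate block. The median of all 10 genes was -0.10 with population alone and 0.00 with the block, against -0.01 and 0.02 over all tested genes.

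**Figure D2:**
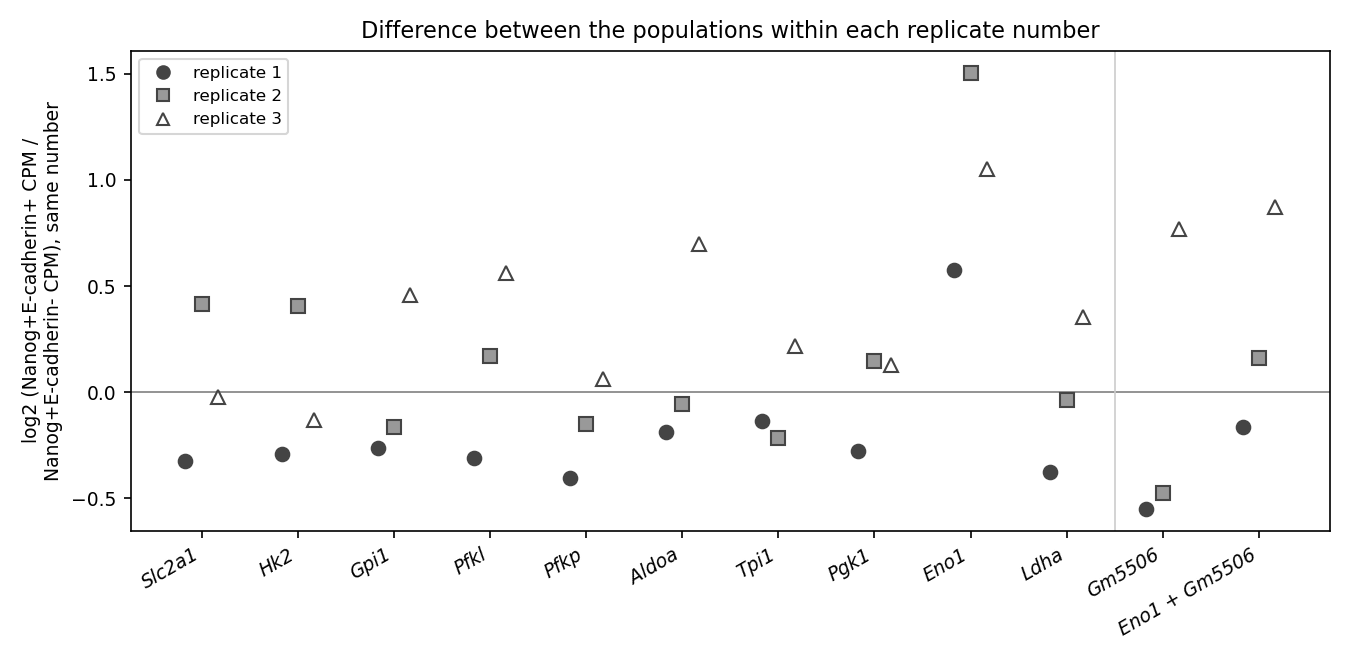
Log2 ratio of Nanog+E-cadherin+ CPM to Nanog+E-cadherin- CPM within each replicate number for the 10 genes, and right of the vertical line for Gm5506 and for the CPM of Eno1 and Gm5506 added together. Eno1 is above 0 in all 3 pairs at 0.57, 1.51 and 1.05, whereas the replicate 1 value of every other gene is below 0.

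With population as the only term and Benjamini-Hochberg adjusted p-values, edgeR's quasi-likelihood test called 0 of the 10 genes, where it called 0% of all tested genes. Over all genes 359 had an unadjusted p under 0.05 in that fit, and at the same adjusted threshold DESeq2 called 13 genes and limma-voom 0. With the replicate block edgeR called 0 of the 10 and 0.305% of all tested genes (41, of which 29 were higher and 12 lower in Nanog+E-cadherin+ cells). With the same block 1 of the 10, Eno1, was called by DESeq2, which called 2.26% of all tested genes, and by limma-voom, which called 1.96%. In the edgeR fit with the block on all 6 libraries, Eno1 had an adjusted p of 0.075. With the block on 2 pairs, edgeR called Eno1 in each case, without replicate 1, 2 or 3, where it called 1.34%, 1.03% and 3.31% of all tested genes. The fits on 2 pairs used fewer libraries yet called larger shares than the 0.305% above, so nothing is read from their calls of Eno1. These counts are descriptions, since the genes were chosen from this contrast.

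Counts of Eno1 are uncertain because a near-identical gene is listed separately. Gm5506, which RefSeq also names Eno1b, has a GENCODE transcript that matched that of Eno1 at 99.5% of 1652 aligned bases, with 9 mismatches. Of the 50-base windows of the Eno1 transcript, 66.3% occur letter for letter in Gm5506, against 0% in Eno2, the neuronal enolase, so many short reads fit both genes and are divided between them by estimation. Gm5506 had 2407, 694 and 1305 CPM in Nanog+E-cadherin+ replicates 1 to 3, against 3523, 964 and 765 CPM in Nanog+E-cadherin- replicates 1 to 3. It was thus lower in Nanog+E-cadherin+ cells in replicates 1 and 2 and higher in replicate 3, with a log2 fold change of -0.09 ± 0.24 (SE) with the block. Eno1 took 43.4%, 47.7% and 37.9% of the summed expected counts of both genes in Nanog+E-cadherin+ replicates 1 to 3, against 26.0%, 18.8% and 33.4% in Nanog+E-cadherin- replicates 1 to 3. These shares did not overlap, and averaged 43.0 ± 4.90% in Nanog+E-cadherin+ cells and 26.1 ± 7.33% in Nanog+E-cadherin- cells (SD, n = 3 each). Eno1 was chosen from this contrast and other gene pairs were not compared, so nothing is read from that separation.

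Added together, the 2 genes differed less between the populations than Eno1 alone. Their sum was 4252, 1328 and 2103 CPM in Nanog+E-cadherin+ replicates 1 to 3, against 4761, 1187 and 1149 CPM in Nanog+E-cadherin- replicates 1 to 3. The ratio within pairs was 0.893, 1.12 and 1.83, so the sum was lower in Nanog+E-cadherin+ cells in replicate 1 and higher in replicates 2 and 3. Its log2 fold change was 0.11 ± 0.69 (SE) with population alone and 0.29 ± 0.18 (SE) with the block, against 1.04 ± 0.18 for Eno1 by itself. How the reads of both genes were divided in each library was not tested, since only the estimated counts were used here.

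**Figure D3:**
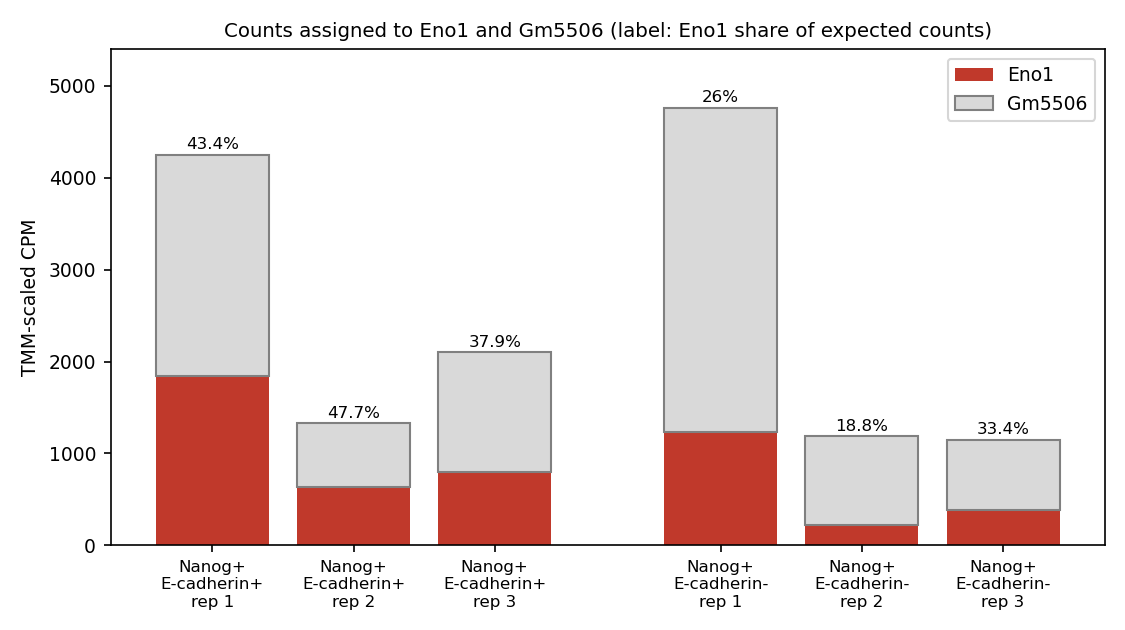
TMM-scaled CPM assigned to Eno1 (red) and Gm5506 (grey) in each library, stacked, with the Eno1 share of their summed expected counts above each bar. The Eno1 share is 37.9 to 47.7% in the 3 Nanog+E-cadherin+ libraries and 18.8 to 33.4% in the 3 Nanog+E-cadherin- libraries, while the bar heights overlap.

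A further list of 6 genes is set beside Eno1 (Xkrx, F830016B08Rik, Skint4, Psg28, Cyp2j5 and Slc6a18). An earlier account of these same libraries had found them near 0 in both replicate 1 libraries, so their low sums there were fixed by that choice. They summed to 1.39, 83.4 and 27.7 CPM of library totals in Nanog+E-cadherin+ replicates 1 to 3. In Nanog+E-cadherin- replicates 1 to 3 they summed to 2.70, 824 and 467 CPM. With the block edgeR called all 6 lower in Nanog+E-cadherin+ cells, against 0.305% of all tested genes called in either direction. The 6 were picked from these same libraries, so nothing is read from that count. They were listed as background sequence, and whether their counts come from expression of these genes was not tested. The 2 libraries with the highest sums were the 2 with the lowest Eno1. Within replicate 1, Eno1 was 1.49-fold higher in the Nanog+E-cadherin+ library. Any link between these sums and Eno1 was not tested. Without Nanog+E-cadherin- replicates 2 and 3, and with population alone, the log2 fold change of Eno1 was -0.18 ± 0.72 (SE), which sets 3 libraries against replicate 1 alone, and the median of the 10 genes was -1.02. Leaving out single libraries gave Eno1 values from 0.22, when replicate 1 of Nanog+E-cadherin+ was dropped, to 1.86, when replicate 1 of Nanog+E-cadherin- was dropped. It was 0.43 and 0.58 when Nanog+E-cadherin- lost replicate 2 or 3. With the block and 2 pairs it was 1.29, 0.82 and 1.05 without replicates 1, 2 and 3.

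By fitted fold, each of the 10 genes except Pfkp differed more between replicate 1 and the other replicates than between the populations. The 10 genes together took 1.22% of counts in replicate 1 of Nanog+E-cadherin+ and 1.44% in that of Nanog+E-cadherin-, and between 0.411% and 0.537% in the 4 other libraries. The fitted level of replicate 1 over the mean of replicates 2 and 3 was 4.95-fold for Pfkl, 4.57-fold for Slc2a1, 4.45-fold for Ldha, 4.16-fold for Aldoa and 4.07-fold for Pgk1. It was 3.33-fold for Eno1, 2.84-fold for Tpi1 and 2.15-fold for Gpi1, and 1.27-fold for Hk2 and 1.05-fold for Pfkp. The replicate number was tested by edgeR's F test in the fit with the block, a test chosen after this pattern was seen. It called 8 of the 10 genes, with adjusted p between 0.000337 for Pgk1 and 0.00496 for Gpi1, whereas 22.2% of all tested genes were called. Hk2 (adjusted p = 0.253) and Pfkp (adjusted p = 0.73) were not called. Scaling by library totals or by DESeq2 size factors also gave 8 of the 10, and leaving out 1 library at a time gave 8 or 9.

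Marker sums of neural stem cells, astrocytes and neurons also followed the replicate number. Of the 6 neural stem cell markers, the F test called Nes, Vim, Fabp7 and Slc1a3, against 22.2% of all tested genes. They stood at 0.397-fold, 0.474-fold, 0.25-fold and 0.141-fold in replicate 1. Msi1 was not called, nor was Sox2, which the cassette also encodes. The 5 astrocyte markers summed to 215, 755 and 1312 CPM in Nanog+E-cadherin+ replicates 1 to 3, against 139.8, 655 and 1046 CPM in Nanog+E-cadherin- replicates 1 to 3. The 7 neuron markers found summed to 713, 182 and 136 CPM in Nanog+E-cadherin+ cells, against 950.5, 395 and 223 CPM in Nanog+E-cadherin- cells. Both replicate 1 libraries thus had the lowest astrocyte sum and the highest neuron sum, and they were the 2 libraries with the largest totals. The neuron sum rests mainly on Tubb3 and Stmn2, while the replicate means of Gad2, Snap25 and Syt1 were lowest in replicate 1, at 2.52, 1.42 and 3.38 CPM. The neuron sum was also lower in the Nanog+E-cadherin+ library of each pair, and edgeR with the block called Tubb3, a neuronal tubulin gene, between the populations (log2 fold change -1.27, adjusted p = 0.037). Stmn2 was not called in that fit, at a log2 fold change of 0.03 ± 0.14 (SE), and within pairs its ratio was 1.19, 0.924 and 0.974. What part these features have in the replicate difference of the glycolysis genes, or in the Eno1 difference, was not tested.

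**Figure D4:**
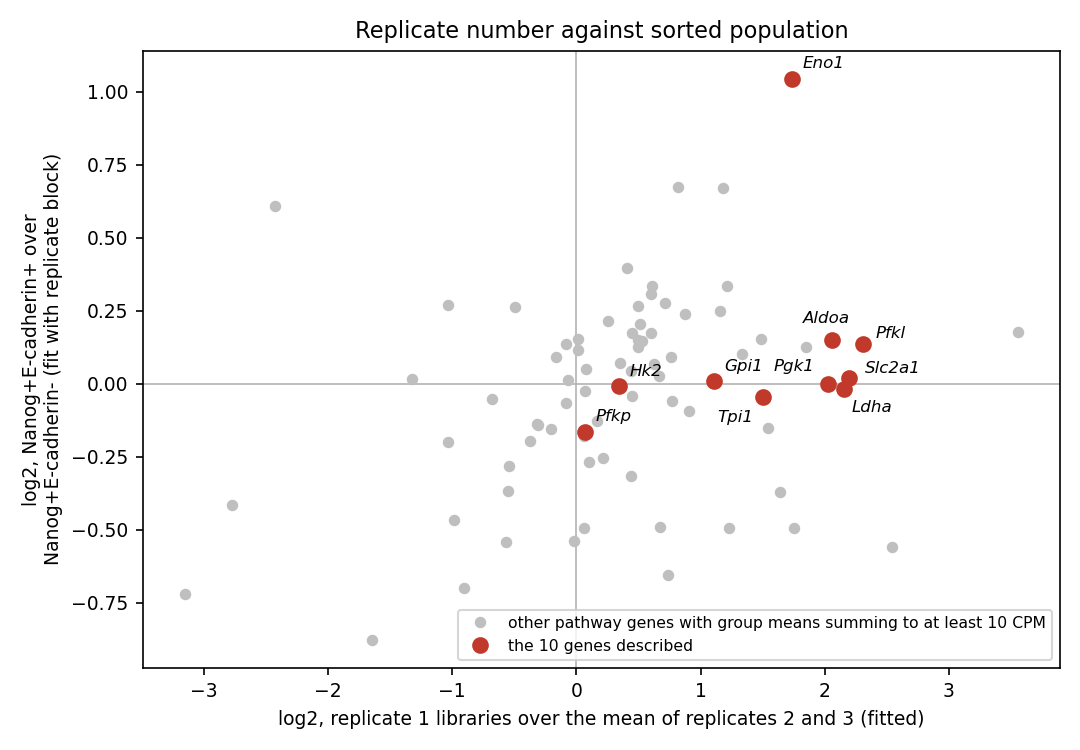
Fitted log2 level of replicate 1 over the mean of replicates 2 and 3 (horizontal axis) against the log2 fold change of Nanog+E-cadherin+ over Nanog+E-cadherin- with the replicate block (vertical axis), with the 10 genes in red and other pathway genes whose group means sum to at least 10 CPM in grey. The red points other than Eno1 lie within -0.17 and 0.15 on the vertical axis and spread along the horizontal one, and Eno1 stands at 1.04.

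On the TPM scale, which is per length and allows genes to be set side by side, the mean levels over the 6 libraries formed 2 tiers. Ldha was highest at 1685 TPM, followed by Aldoa at 1446, Tpi1 at 961, Pgk1 at 892, Eno1 at 796 and Gpi1 at 734 TPM. The order within this upper tier depends on the replicate 1 libraries, since in 3 of the 4 others Gpi1 exceeded Pgk1. Well below them came Slc2a1 at 209.9, Pfkl at 155, Pfkp at 63.7 and Hk2 at 44.5 TPM. The ranges of neighbours in this order overlapped everywhere except between Gpi1 (538.9 to 1010.0 TPM) and Slc2a1 (87.5 to 424 TPM). Pfkl and Pfkp overlapped only through Nanog+E-cadherin- replicate 3, where Pfkl stood at 77.2 TPM and Pfkp at 78.7 TPM. The TPM of Eno1 carries the same uncertainty as its counts, and Gm5506 was listed at a mean of 1599 TPM.

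Isozyme shares shifted with the replicate number as well. Pfkl made up 73.3%, 38.4% and 37.9% of the summed TPM of the 3 phosphofructokinase genes in Nanog+E-cadherin+ replicates 1 to 3, against 70.6%, 31.9% and 32.7% in Nanog+E-cadherin- replicates 1 to 3. Ldha made up 92.3%, 76.6% and 77.5% of the lactate dehydrogenase genes in Nanog+E-cadherin+ cells, against 93.1%, 71.6% and 74.9% in Nanog+E-cadherin- cells. In both families the 2 replicate 1 libraries leaned furthest to the named isozyme. Eno1, not counting Gm5506, made up 98.2%, 92.2% and 93.0% of the enolase genes in Nanog+E-cadherin+ replicates 1 to 3, against 96.4%, 80.8% and 82.7% in Nanog+E-cadherin- replicates 1 to 3. Its share was the larger in the Nanog+E-cadherin+ library of every pair, though the selection of Eno1 used this contrast. Hk2 made up 45.3%, 37.0% and 32.2% of the hexokinases in Nanog+E-cadherin+ cells, against 43.4%, 29.3% and 35.6% in Nanog+E-cadherin- cells. Aldoa made up 98.0% and 97.9% of the aldolases in the 2 replicate 1 libraries and 87.4% to 90.6% in the others, so both shares were also highest in replicate 1. Slc2a1 made up 71.0%, 47.2% and 49.7% of Slc2a1 plus Slc2a3, a high-affinity glucose transporter, in Nanog+E-cadherin+ cells, against 76.1%, 51.3% and 52.3% in Nanog+E-cadherin- cells.

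**Figure D5:**
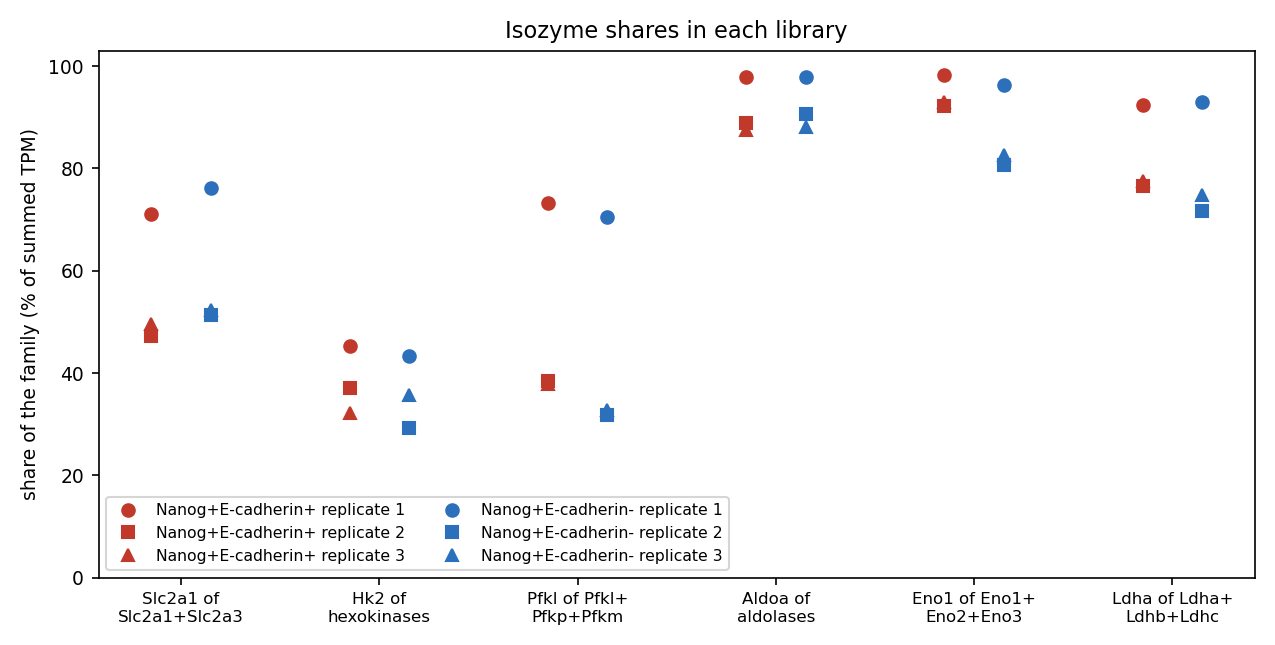
Share of a gene family's summed TPM taken by the named isozyme in each library, with Nanog+E-cadherin+ libraries (red) left of Nanog+E-cadherin- libraries (blue) and the symbol giving the replicate number. Circles of replicate 1 are highest for Pfkl (73.3% and 70.6%), Ldha (92.3% and 93.1%) and Slc2a1 (71.0% and 76.1%), and the Eno1 share is lowest in Nanog+E-cadherin- replicates 2 and 3.

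Other genes of the pathway were not called between the populations by edgeR on all 6 libraries. Of 94 further genes listed in 7 groups, 81 could be tested, and edgeR called 0 of them in either direction with population alone and 0 with the block (smallest adjusted p = 0.179). With the block, DESeq2 called 3 of them (Pcx, Vegfa and Kdm3a), limma-voom called 2 (Vegfa and Kdm3a), and edgeR without replicate 3 called 3 (Vegfa, Ddit4 and Kdm3a). By replicate number 27 of the 81 were called, against 22.2% of all tested genes. Over all tested genes 11.1% were called higher and 11.1% lower in replicate 1. Among 12 tested enzyme genes of glycolysis, 3 were higher in replicate 1 and 1 was lower. Gapdh, the dehydrogenase that makes NADH, had 7935, 3111 and 4575 CPM in Nanog+E-cadherin+ replicates 1 to 3, against 9399.6, 3254 and 2973 CPM in Nanog+E-cadherin- replicates 1 to 3, and was 2.52-fold higher in replicate 1. Pkm2, the files' symbol for muscle pyruvate kinase, and the phosphoglycerate mutase gene Pgam1 were 3.61-fold and 2.80-fold higher there. The hexokinase Hk1, at 128 to 206 CPM in Nanog+E-cadherin+ cells and 169 to 194 CPM in Nanog+E-cadherin- cells, was not called.

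Of 10 tested transport genes, edgeR on all 6 libraries called 0 between the populations and 3 higher in replicate 1, against 11.1% of all tested genes called higher there. Slc16a3 (MCT4), which exports lactate, had 324, 29.0 and 40.2 CPM in Nanog+E-cadherin+ replicates 1 to 3, against 387, 33.6 and 19.0 CPM in Nanog+E-cadherin- replicates 1 to 3. At 11.8-fold, its replicate 1 difference was wider than that of any of the 10 genes. Bsg, the chaperone of the lactate transporters, was 2.23-fold and Slc2a3 1.64-fold higher in replicate 1, while the lactate transporter Slc16a1 stayed between 68.8 and 85.7 CPM.

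Of 18 tested genes of flux and pyruvate control, 1 was called higher and 2 lower in replicate 1, a share near the 22.2% of all tested genes. Pdk1, a kinase that inhibits pyruvate dehydrogenase, was 2.92-fold higher there, and the pyruvate dehydrogenase subunit gene Pdha1 lay between 289 and 345 CPM in all 6 libraries. Pfkfb3 and Pfkfb4, which set fructose 2,6-bisphosphate, had log2 fold changes of -0.54 ± 0.21 and -0.54 ± 0.22 (SE) with the block and were not called. Of 9 pentose phosphate genes, 3 were called higher in replicate 1, among them Taldo1 (transaldolase) at 1.54-fold, and 1 lower, G6pdx, the entry enzyme, at 0.623-fold. Over all tested genes 11.1% were called in each direction. The other 2 named genes of that list, Pgd and Tkt, had log2 fold changes of 0.15 ± 0.13 and 0.07 ± 0.14 (SE) with the block. Of 3 tested gluconeogenesis genes, 1 was called by replicate number, namely pyruvate carboxylase (Pcx), at 42.3, 223 and 307 CPM in Nanog+E-cadherin+ replicates 1 to 3, against 33.6, 165 and 148 CPM in Nanog+E-cadherin- replicates 1 to 3. Pcx was thus 0.186-fold in replicate 1, the reverse of the glycolysis genes, whereas Pck2 and G6pc3 were not called and Fbp1, the fructose bisphosphatase gene, was below the filter at no more than 0.382 CPM of library totals.

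Genes known as hypoxia targets outside glycolysis had the lowest median between the populations among the 7 lists, and edgeR on all 6 libraries called 0 of them. With the block 13 of 16 were fitted lower in Nanog+E-cadherin+ cells, with a median log2 fold change of -0.44, against 0.02 over all tested genes, and 6 were lower in all 3 pairs, as were 17.3% of all tested genes. Vegfa, the vascular growth factor, had 71.8, 55.6 and 37.6 CPM in Nanog+E-cadherin+ replicates 1 to 3, against 122, 84.4 and 56.7 CPM in Nanog+E-cadherin- replicates 1 to 3. Bnip3, which acts in mitophagy, had 125, 18.4 and 20.7 CPM in Nanog+E-cadherin+ cells, against 163, 25.3 and 37.2 CPM in Nanog+E-cadherin- cells. In each pair both genes had the smaller value in the Nanog+E-cadherin+ library, with log2 fold changes of -0.65 ± 0.16 for Vegfa and -0.56 ± 0.18 for Bnip3 (SE), and 9 of the 16, these 2 included, were called higher in replicate 1, against 11.1% of all tested genes. Ndrg1 and Egln3, the other named targets, had log2 fold changes of -0.16 ± 0.20 and 0.03 ± 0.24 (SE).

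Of 13 regulators of these genes, edgeR on all 6 libraries called 0 between the populations. Hif1a, the oxygen-regulated subunit of HIF-1, had 66.2, 75.7 and 65.6 CPM in Nanog+E-cadherin+ replicates 1 to 3, against 58.4, 61.0 and 76.5 CPM in Nanog+E-cadherin- replicates 1 to 3. Myc, which the cassette also encodes, had 845, 644 and 661 CPM in Nanog+E-cadherin+ replicates 1 to 3, against 823, 649 and 688 CPM in Nanog+E-cadherin- replicates 1 to 3. Neither was called by replicate number. Of the 13 regulators 2 were, Mycn at 2.32-fold in replicate 1 and Epas1, which encodes HIF-2 alpha, at 0.146-fold. Over all tested genes 22.2% were called by replicate number, so nothing is read from that count.

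Across the 6 libraries, Ldha tracked most of the other genes. As Pearson correlations of log2 CPM, which share libraries and are given without a test, Ldha had r = 0.997 with Pfkl, 0.993 with Aldoa and with Pgk1, 0.989 with Tpi1, 0.972 with Gpi1 and 0.95 with Slc2a1. Its r was 0.80 with Eno1, 0.64 with Hk2 and 0.30 with Pfkp. Eno1 in turn had r between 0.04 with Pfkp and 0.86 with Slc2a1 among the 10 genes, and 0.75 with Gm5506. Among the tested genes most like Eno1 by this measure were Gtf2a1 (r = 0.997), Dyrk3, Gpr172b and Gatad1. These 4 were higher in Nanog+E-cadherin+ cells in each pair, as were 18.9% of all tested genes. They were picked for following Eno1 in these libraries, so nothing is read from their direction.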

How the data were processed

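RNA-seq was done on 6 libraries, 3 per sorted population, grouped and numbered by the sample titles. Per the labels' protocols, sorted fixed cells were decrosslinked before RNA isolation, and a TruSeq RNA kit was used. Bowtie, RSEM 1.2.4 and the build mm9 are named, per the submitters' processing notes. Settings and strand use were not given in the sources used here, and antisense partners therefore cannot be told apart. Per the file headers, the deposited files give an expected count, a TPM and an FPKM value per gene. FPKM was not used. The authors' TPM served for levels between genes, isozyme shares and 2 alternatives, log2(TPM + 1) and log2(TPM + 0.1).

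The authors' expected counts were rounded and tested with edgeR 4.0.16 in R 4.3.3 (TMM, filterByExpr with minimum count 10 and minimum total 15, quasi-likelihood, Benjamini-Hochberg, adjusted p under 0.05), with population as the only term. DESeq2 1.42.0 and limma 3.58.1 were alternatives, as were other scalings, no filter, and leaving out libraries. Standard errors of edgeR fold changes are the log2 fold change divided by the root of F. CPM values are scaled by TMM, but values of genes under the filter and sums over markers or over the 6 genes near 0 are CPM of library totals. The edgeR fits were also run on simulated counts, which held no reads shared between genes, and no result here rests on that run.

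Both populations carry numbers 1 to 3. Deviations from the population means correlated at 0.793, 0.447 and 0.541 between same-numbered libraries and at -0.65 to 0.164 between others. Every same-numbered value exceeded every other, so the numbers were taken to pair the samples. The limit of 0.1 set for this did not separate them alone, as Nanog+E-cadherin+ replicate 2 with Nanog+E-cadherin- replicate 3 (0.164) and replicate 3 with replicate 2 (0.12) passed it too. Deviations from a mean cancel out within a population, which by construction lowers the other correlations. This pairing rests on the values, as no label says what a number marks.

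The genes described, the pathway and marker lists and the tests were chosen with earlier results of these data known. Named are the 10 genes, the first 4 of each pathway list found in the files, any list gene called, and the 5 tested genes whose log2 CPM correlates best with Eno1 (1 of these 5 is not reported here), passing over the 10 genes and predicted genes. The F test of the replicate number and the sum of Eno1 and Gm5506 were added after the data were seen. Map2, a neuron marker on the lists, was not found and was not analysed here. Promoters are RefSeq's on GRCm38.p6, the transcripts compared are GENCODE's, and neither gave coordinates to the counts. The Eno1 transcript compared had 2027 bases, against a length of 1776 listed with the counts.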

Additional observations from a re-analysis of the deposited data

How the results depend on the processing

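Between the populations, edgeR with population alone called 0 genes. It called 1 without the filter, and DESeq2 called 13. With the replicate block, by which same-numbered libraries were paired, edgeR called 41, or 44 with DESeq2 size factors and 35 with library totals. DESeq2 and limma-voom with that block, chosen after the data were seen, called 304 and 264, and each called 1 of the 10 glycolysis genes, Eno1, at log2 fold changes of 1.06 and 0.97. They called 3 (Pcx, Vegfa and Kdm3a) and 2 (Vegfa and Kdm3a) of the other pathway genes. With the block and without replicate 1, 2 or 3, edgeR called 182, 140 and 449 genes and Eno1, called in each, stood at 1.29, 0.82 and 1.05. Leaving out replicates gave 0 to 449 genes, 0 to 1 of the 10, 0 to 3 pathway genes, 0.22 to 1.86 for Eno1, and -0.82 to 1.06 for the median of the 10, lowest without Nanog+E-cadherin+ replicate 1 and highest without Nanog+E-cadherin- replicate 1. The 1 reversal of Eno1, to -0.18, came without Nanog+E-cadherin- replicates 2 and 3, where the median of the 10 was -1.02; fewer samples entered that fit, and the cause was not tested. The other alternatives kept the direction of Eno1. By replicate number 8 to 9 of the 10 genes were called, Hk2 being added without replicate 3 of either population.

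With 3 libraries per population, unpaired fits had standard errors of about 0.69 for Eno1, so differences of that size were not detectable without the block. Counts of the 10 genes were at least 1120 in every library, so the spread between libraries limits these values more than counting does.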
